A study of Mus musculus with 3 samples.

Results

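The genes described here are the enzymes of lower glycolysis, the lactate dehydrogenase subunits and a lactate carrier, taken by symbol from the probe annotation: Aldoa, Tpi1, Gapdh, Pgk1, Pgam1, Eno3, Pkm, Ldha, Ldhb and Slc16a1. Of these 10, 9 are among the 18193 genes that the annotation names alone on a probe set outside the controls, and Gapdh is not. RNA was measured on 3 Affymetrix mouse arrays of memory phenotype CD4 T cells, helper T cells that carry surface marks of past antigen contact, sorted from the spleens of BALB/c mice to above 99% purity. The ND group (normal diet for 10 weeks) held 1 array, and the HFD group (a diet with 60 kcal% fat for 10 weeks) held 2. The sources used here give neither the age of the mice nor whether an array held 1 mouse or a pool, so the spread behind each p-value is that of these samples alone and may be technical.

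Glycolysis turns glucose into pyruvate in the cytosol. In its later steps a phosphorylated hexose is split into triose phosphates, whose oxidation yields ATP and NADH, and lactate dehydrogenase then reoxidises NADH by turning pyruvate into lactate, which leaves the cell through proton-coupled carriers. T cells are known to raise this pathway when they are activated and to rely more on mitochondrial respiration at rest.

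Nearly all of these transcripts were more abundant in HFD. Of the 9 genes that could be tested, 8 rose in HFD (Aldoa, Tpi1, Pgk1, Pgam1, Eno3, Pkm, Ldha and Slc16a1), by 1.43 to 4.74-fold, and 0 fell. The background was 20.5% of the 10341 genes tested called higher and 29.2% called lower, and 28.7% called higher among the brighter genes above the 75th percentile of intensity. The lactate carrier gene Slc16a1 had the largest change and Ldhb, for the heart-type lactate dehydrogenase subunit, the smallest. The median difference of the 9 genes was 1.05 on the log2 scale against -0.15 over all genes tested. The tenth gene, Gapdh, was read from its control probe sets and was also higher.

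Calls came from limma's moderated test on log2(intensity + 17.65) at a Benjamini-Hochberg adjusted p under 0.05 over all genes tested, with 1 probe set per gene, the brightest. A fold change is a ratio on that scale. An HFD level is given as the mean ± SD of its 2 arrays, and the ND level is a single value with no error of its own: the spread comes from the HFD arrays alone and is taken to hold for ND as well. Centring the arrays on their medians turned the split of calls over all genes from 2117 higher and 3015 lower to 2757 higher and 2097 lower, while 8 of the 9 genes stayed called higher.

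**Figure D1:**
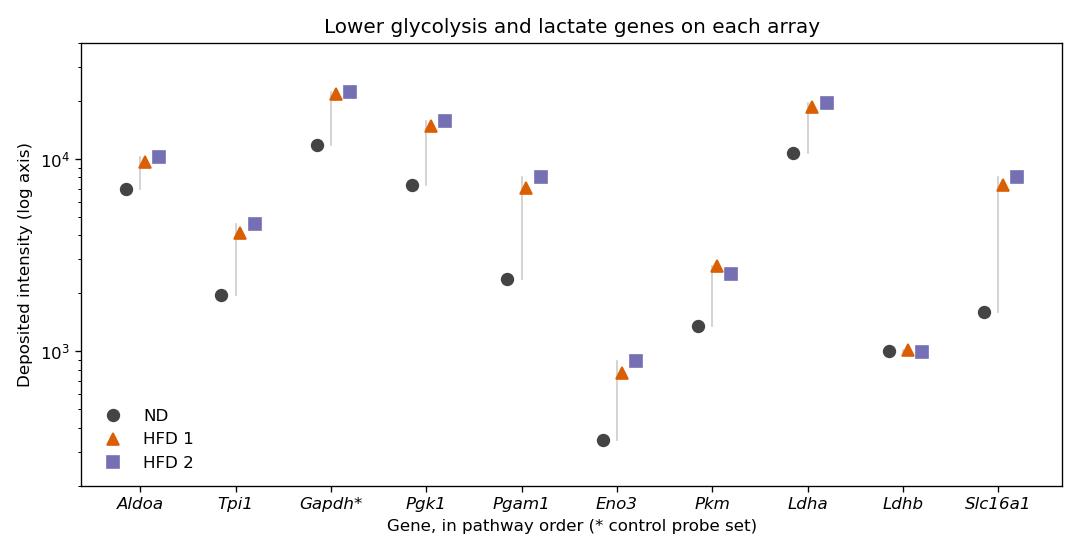
Deposited intensity (log axis) of each of the 10 genes on the ND array (circle), HFD 1 (triangle) and HFD 2 (square), for the brightest probe set of each gene and, for Gapdh, its brightest control probe set. In 9 genes both HFD arrays lie above ND, with the widest gap for Slc16a1 (1603 against 7332 and 8008), while the 3 values of Ldhb lie together near 1000. The share of all genes with such an order was not counted.

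Markers of cell types differed between the groups as well; the sums below are over all markers of a list with a probe set, whether or not they passed the filter on low values. The T cell and CD4 markers summed to 106090 in ND and 86665 and 84717 in HFD. Of 9 tested, 7 fell, a count of 3 with the arrays centred and 2 without a variance trend, and 0 rose (0 also at an unadjusted limma p under 0.05). Over all genes tested, 29.2% were called lower and 20.5% higher in the main fit, the background for the main counts of this paragraph. Cd3e, a chain of the T cell receptor complex, read 4167 in ND and 2492 ± 93.1 in HFD, so this defining marker was read on all arrays. Cd44, a known marker of memory T cells, read 9761 in ND and 5661 ± 54.6 in HFD (limma adjusted p = 2.1e-05). Its 3 probe sets past the filter ran from log2 -0.78 to -0.26, and its call held in 9 of 9 alternatives. Cd4 read 911 in ND and 609 and 377 in HFD (limma adjusted p = 0.0048, and 0.078 and 0.09 in the 2 of 9 alternatives that ended the call). Sums were lower in HFD for macrophage markers (2350 to 940 and 1099), with 4 of 6 tested genes called lower, and for dendritic cell markers (2005 to 832 and 966). Flt3 of the dendritic list was called lower but passed the filter only through ND, at 188 in ND and 71.35 and 62.1 in HFD. The dendritic count is therefore not given as a share. With no filter, 2 genes of that list were called lower. Sums were higher in HFD for neutrophil markers (264 to 663 and 733), B cell markers (1689 to 3352 and 3617) and CD8 and NK cell markers (1396 to 1837 and 2081). In the neutrophil and B cell lists the genes called higher passed the filter only through HFD, so their counts are not given as shares: S100a8 and S100a9 read 40.9 and 5.85 in ND and 305 ± 81.5 and 157 ± 36.7 in HFD, and Ms4a1 and Fcer2a read 56.8 and 31.6 in ND and 1725 ± 159 and 584 ± 85.3 in HFD. Cd22, another B cell marker, fell from 939 to 555 ± 71.0, and the median of the 5 tested was -0.13 on the log2 scale (0.17 with no filter). Of 5 tested CD8 and NK cell markers, 3 rose, a count of 1 with no filter. Elane, Klra8, Alas2, Mb and Myl1 read under 17.65 on all arrays. The part of other cells in the results below was not tested, and in bulk RNA fewer cells of a type cannot be told apart from less RNA per cell.

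The 250 bases before the RefSeq start of transcription (build GRCm38.p6, 5′ to 3′ on the strand of the gene) are shown for the genes with the largest changes, Slc16a1 and Pgam1, and for the pair of lactate dehydrogenase genes, Ldha and Ldhb, whose changes differed. They were searched for ACGTG, the core that hypoxia-inducible factors are known to bind, and CACGTG, the E-box bound by MYC and related proteins, on both strands (CACGTG holds ACGTG on either strand). Capitals mark these letters. The windows lie at chr3:104638414-104638663 on the + strand (Slc16a1), chr19:41911621-41911870 on the + strand (Pgam1), chr7:46845554-46845803 on the + strand (Ldha, the first of its 2 starts) and chr6:142507958-142508207 on the - strand (Ldhb).
Slc16a1: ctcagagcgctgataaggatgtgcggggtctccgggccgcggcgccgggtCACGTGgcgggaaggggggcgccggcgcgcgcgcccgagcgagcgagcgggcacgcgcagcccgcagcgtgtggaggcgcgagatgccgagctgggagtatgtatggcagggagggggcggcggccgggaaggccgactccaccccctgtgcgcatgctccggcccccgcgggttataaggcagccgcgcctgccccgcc
Pgam1: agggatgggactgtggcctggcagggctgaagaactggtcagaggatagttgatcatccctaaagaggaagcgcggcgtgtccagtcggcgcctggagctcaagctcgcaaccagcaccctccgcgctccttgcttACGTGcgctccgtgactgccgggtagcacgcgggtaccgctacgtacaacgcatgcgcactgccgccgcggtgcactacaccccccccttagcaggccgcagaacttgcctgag
Ldha: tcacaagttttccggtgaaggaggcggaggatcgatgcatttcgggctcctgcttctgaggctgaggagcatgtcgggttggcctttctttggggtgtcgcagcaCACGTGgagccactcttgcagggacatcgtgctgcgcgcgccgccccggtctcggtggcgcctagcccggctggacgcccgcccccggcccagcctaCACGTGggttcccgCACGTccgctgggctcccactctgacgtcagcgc
Ldhb: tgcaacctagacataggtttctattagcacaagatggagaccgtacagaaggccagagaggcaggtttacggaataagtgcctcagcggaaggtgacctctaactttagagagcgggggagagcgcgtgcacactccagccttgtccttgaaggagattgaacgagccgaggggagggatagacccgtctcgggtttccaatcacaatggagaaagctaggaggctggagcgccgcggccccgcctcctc

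Of the 10 genes, all matched in the table, 2 held CACGTG in such a window, Ldha with 2 copies and Slc16a1 with 1, against 6.9% of all 27025 genes with a window. ACGTG was found for 6 of the 10 (Aldoa, Ldha, Pgam1, Pgk1, Pkm and Slc16a1), against 18.5% of all genes. A gene was counted if any of its windows matched, and genes differ in their number of windows. The second window of Ldha and the first windows of Aldoa and Pkm held 0 copies of either. Windows differ in base composition, with G or C at 76.4% of the bases for Slc16a1 and 56.4% for Ldhb. A match describes letters in this window, not a bound site.

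Slc16a1 encodes MCT1, the proton-coupled carrier that moves lactate and pyruvate across the plasma membrane. Its brightest probe set read 1603 in ND, 7332 in HFD 1 and 8008 in HFD 2. Both HFD arrays were high and close to each other, far from the ND value. The change was 4.74-fold (log2 2.24 ± 0.10 SE, limma adjusted p = 8.5e-09), higher in 2 of 2 HFD arrays and rank 88 from the top of 10341 genes. The other probe set of Slc16a1 stayed under the filter on low values, a mean of 71.4 over the 3 arrays, and read 18.5, 47.4 and 18.0. The genes whose differences to ND lay closest to those of Slc16a1 on both HFD arrays, by Euclidean distance on the log2 scale over these 3 arrays, were Umps (0.03), an enzyme of pyrimidine synthesis, Ccr7 (0.03), the lymph node homing receptor, and Atad3a (0.04), a mitochondrial ATPase.

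Aldoa encodes aldolase A, which splits the phosphorylated hexose. Its brightest probe set read 6933 in ND, 9584 in HFD 1 and 10272 in HFD 2. The HFD arrays did not overlap with ND but the gap was the smallest among the 8 genes that rose, 1.43-fold (log2 0.52 ± 0.09 SE, limma adjusted p = 4.5e-04). Aldoa had 5 probe sets, each of the _x_at kind, whose probes may also match other sequences. In the fit over 22518 probe sets, 4 of them were called higher, at log2 0.49 to 0.73, and the dimmest, at 1825 in ND and 2135 and 2170 in HFD, missed the threshold (log2 0.24 ± 0.12 SE, limma adjusted p = 0.14).

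Tpi1 encodes the isomerase that interconverts the triose phosphates. It read 1953 in ND, 4099 in HFD 1 and 4596 in HFD 2. Both HFD values were over the ND value by more than 2-fold (2.21-fold, log2 1.14 ± 0.11 SE, limma adjusted p = 5.5e-06). The 3 probe sets of Tpi1 lay close together, at log2 1.11, 1.14 and 1.18, and all were called higher.

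Gapdh encodes the dehydrogenase that yields NADH from triose phosphate and is widely used as a reference transcript. No probe set outside the controls named Gapdh alone: 3 others listed it beside other symbols. The control probe set at its 5′ end read 11763 in ND, 21636 in HFD 1 and 22147 in HFD 2. The middle one read 7875 in ND and 14945 ± 14.8 in HFD, and the 3′ one 8505 and 15185 ± 642. All 3 were thus higher in both HFD arrays by a similar factor, at 1.86, 1.90 and 1.78-fold. When they were added to the fit, a step chosen after seeing the data, each was called higher (limma adjusted p = 1.7e-06, 2.9e-06 and 8.4e-06), and 9 genes of 10 were then called higher. The log2 ratio of the 3′ to the 5′ control, a sign of RNA integrity, was -0.47 in ND and -0.55 and -0.50 in HFD for Gapdh, and 0.37 in ND and 0.35 and 0.42 in HFD for the actin controls. Of the probe sets that list Gapdh with other symbols, the bright one read 12436 in ND and 19210 ± 75.5 in HFD (log2 0.63, limma adjusted p = 3.4e-05). The other two, dim ones, went opposite ways, from 67.0 to 208 ± 2.10 (limma adjusted p = 0.0011) and from 132 to 71.1 ± 0.26 (limma adjusted p = 0.088).

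Pgk1 encodes phosphoglycerate kinase, which makes the first ATP of the pathway. Its brightest probe set read 7331 in ND, 14802 in HFD 1 and 15651 in HFD 2. The HFD values were close to each other and about double the ND value, at 2.07-fold (log2 1.05 ± 0.08 SE, limma adjusted p = 6.7e-07). A second probe set gave nearly the same change (log2 1.04), but the third read 3105 in ND, 13638 in HFD 1 and 15206 in HFD 2, a 4.62-fold change (log2 2.21 ± 0.09 SE, limma adjusted p = 1.6e-08). The third probe set thus showed a larger change than the others. Levels of different probe sets are not on 1 scale, so the source of this gap cannot be told. The last 2 are of the _x_at kind.

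Pgam1 encodes phosphoglycerate mutase, which shifts the phosphate group before enolase acts. It read 2383 in ND, 7054 in HFD 1 and 8062 in HFD 2. After Slc16a1 this was the largest change among the members, 3.15-fold (log2 1.65 ± 0.11 SE, limma adjusted p = 1.4e-07), on its only probe set.

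Eno3 encodes the enolase isoform best known from muscle. It read 345 in ND, 775 in HFD 1 and 887 in HFD 2. It was the dimmest probe set used for a member and its HFD values were more than 2-fold above ND (2.34-fold, log2 1.22 ± 0.16 SE, limma adjusted p = 4.6e-05). Of 11 skeletal muscle markers, 2 passed the filter, and neither Ckm nor Acta1 was called (1 was lower at an unadjusted p under 0.05). Without a variance trend, 1 gene of this list was called lower. The summed intensity over the list was 455 in ND and 407 and 361 in HFD. The common isoform Eno1 had no probe set of its own in the annotation, so no such comparison was made.

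Pkm encodes the pyruvate kinase that closes glycolysis with ATP and pyruvate. It read 1350 in ND, 2757 in HFD 1 and 2512 in HFD 2. Among the 8 genes that rose it was the only one higher in HFD 1 than in HFD 2. The change was 1.94-fold (log2 0.95 ± 0.12 SE, limma adjusted p = 4.5e-05). The annotation gives the gene as a whole, so the splice forms of Pkm are not told apart here.

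Ldha encodes the muscle-type subunit of lactate dehydrogenase, the form that favours lactate. It read 10721 in ND, 18640 in HFD 1 and 19450 in HFD 2. The HFD arrays lay close together and above ND, at 1.77-fold (log2 0.83 ± 0.08 SE, limma adjusted p = 2.8e-06).

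Ldhb encodes the heart-type subunit. Its brightest probe set read 1007 in ND, 1010 in HFD 1 and 989 in HFD 2, so that ND fell between the HFD arrays. The difference was -0.01 ± 0.14 SE on the log2 scale (limma adjusted p = 0.96). The other 3 probe sets of Ldhb read lower in both HFD arrays. One of them went from 1178 to 515 and 725, a fall of 1.90-fold (log2 -0.93 ± 0.19 SE, limma adjusted p = 0.0025; 0.057 with no filter on low values and 0.06 without a variance trend). The remaining 2 missed the threshold, at log2 -0.34 and -0.35 (limma adjusted p = 0.091 and 0.17). The change of Ldha was larger than that of Ldhb by 0.79 in HFD 1 and 0.88 in HFD 2 on the log2 scale. With 1 array against 2, an exact permutation test of this difference cannot go below p = 0.333.

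**Figure D2:**
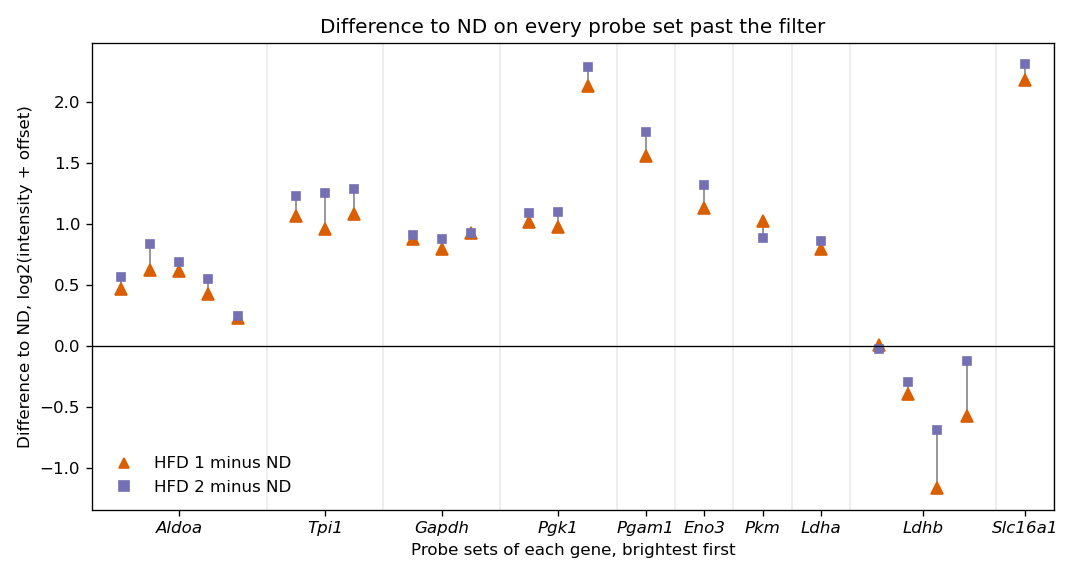
Difference to ND on the log2(intensity + 17.65) scale of HFD 1 (triangle) and HFD 2 (square) for each probe set past the filter, grouped by gene with the brightest first; Gapdh is shown by its 3 control probe sets. The probe sets of Tpi1 and Gapdh lie close together, 1 of the 3 of Pgk1 stands at log2 2.21 against 1.04 and 1.05 for the others, and those of Ldhb spread from -0.01 down to -0.93.

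Over all of them, 20 probe sets of the 9 genes passed the filter out of 21. Of these, 15 were called higher and 1 lower, beside 17.0% and 24.4% of all 22518 probe sets tested. Both HFD arrays lay above ND on 16 of the 20, below it on 3, and ND lay between them on 1. The same counts over all probe sets were not taken, so this order is not read as a result about these genes. Probe sets of 1 gene read the same transcripts and are not replicates. Judged by size alone, 5 of the 9 genes (Tpi1, Pgk1, Pgam1, Eno3 and Slc16a1) were at least 2-fold higher in both HFD arrays and 0 at least 2-fold lower, beside 6.00% and 2.60% of all genes. The HFD arrays differed from each other by 0.03 to 0.19 on the log2 scale over the 9 genes, against a median of 0.13 over all genes, and for each of the 8 genes called the smaller difference to ND was larger than this. HFD 2 read higher than HFD 1 for 7 of the 9, a count with no share over all genes beside it. In the order of change from Eno3 through Tpi1 and Pgk1 to Pkm, neighbours differed by less than the larger of their SEs.

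Counts in the other lists of the pathway are read against the 20.5% of all genes called higher and 29.2% called lower. Of 13 tested genes of glucose uptake and upper glycolysis, 3 rose and 3 fell, shares near that background, with a median of -0.43 on the log2 scale. The count that rose was 1 with probe sets averaged and 1 without a variance trend. Hk2, the inducible hexokinase, rose 6.89-fold, from 274 to 1998 ± 181. Pfkp, a phosphofructokinase isoform, rose 1.30-fold (limma adjusted p = 0.0067, and 0.058 and 0.081 in the 2 of 9 alternatives that ended the call), and Slc2a1, the glucose carrier GLUT1, rose 1.30-fold (1948 to 2542 ± 256, limma adjusted p = 0.024, and 0.086 to 0.13 in the 3 of 9 alternatives that ended the call). Probe sets past the filter, 3 for each gene, ran from log2 0.12 to 0.52 for Pfkp and from 0.11 to 0.38 for Slc2a1. The brightest of Slc2a1 was the highest. The carrier gene Slc2a3 (GLUT3) fell 1.82-fold, from 4493 to 2461 ± 253. The hexokinase genes Hk1 and Hk3 fell 1.43-fold and 1.89-fold, the call of Hk3 ending in 3 of 8 alternatives (limma adjusted p = 0.07 to 0.16) and that of Hk1 in 1 of 9 (limma adjusted p = 0.052). Among the brighter genes above the 75th percentile of intensity the median of this list turned to 0.15. Of 5 tested genes for other isoforms and side reactions of the same steps, Minpp1 rose (1.28-fold, limma adjusted p = 0.029, and 0.056 to 0.088 in the 3 of 9 alternatives that ended the call) and Aldoc, the brain-type aldolase, fell 2.56-fold, from 325 to 141 and 95.6. The change of Aldoa exceeded that of Aldoc by 1.58 in HFD 1 and 2.16 in HFD 2 on the log2 scale. Bpgm, which makes the bisphosphoglycerate of red cells, read 979 in ND and 811 ± 79.1 in HFD (limma adjusted p = 0.15).

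Of the other lactate and pyruvate carriers, 3 of 9 passed the filter, of which 2 rose and 0 fell (0 also at an unadjusted limma p under 0.05, but 1 with probe sets averaged). Bsg, the chaperone basigin that brings MCT1 to the membrane, rose 1.62-fold, from 811 to 1328 ± 44.0 (limma adjusted p = 9.1e-04). Mpc1, a subunit of the mitochondrial pyruvate carrier, rose 1.37-fold (2246 to 3093 ± 222, limma adjusted p = 0.0060, and 0.064 without a variance trend). The carrier genes Slc16a3, for MCT4, and Slc16a7, for MCT2, stayed under the filter, at 31.0 in ND and 61.2 and 42.6 in HFD for Slc16a3 and at 3.99 in ND and 16.6 and 2.68 in HFD for Slc16a7. Mpc2 had no probe set of its own in the annotation.

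Of 13 tested genes of pyruvate dehydrogenase and other pyruvate fates, 4 rose and 2 fell. The 4 include Gpt2, which passed the filter only through HFD, so this count is not read against the background. With no filter, 3 rose and 1 fell. The subunit genes Dlat and Dld of the pyruvate dehydrogenase complex rose 1.68-fold and 1.46-fold. The 3 probe sets of Dlat ran from log2 0.05 to 0.75, the brightest being the highest. Gpt2, a mitochondrial alanine transaminase, was called higher at 24.1 in ND and 116 ± 10.9 in HFD; it passed the filter only through HFD, and its log2 difference ran from 0.97 to 2.21 over the alternatives. Pdk1, a kinase that inhibits the complex, fell 1.90-fold, from 2935 to 1545 ± 204 (limma adjusted p = 1.4e-04). The cytosolic transaminase gene Gpt fell 1.52-fold (limma adjusted p = 0.03, and 0.097 to 0.16 in the 4 of 8 alternatives that ended the call). Pdha1, the catalytic subunit, read 3529 in ND and 3256 ± 23.0 in HFD (limma adjusted p = 0.39), with the sign turned with the arrays centred and with probe sets averaged, and Pcx, for pyruvate carboxylase, stayed under the filter. Of 9 tested genes of the shuttles that carry cytosolic NADH into mitochondria, 4 rose and 3 fell, but 1 fell with the arrays centred, with probe sets averaged or without a variance trend. Got1, the cytosolic aspartate transaminase, rose 2.54-fold (819 to 2114 ± 158) and Gpd2, the mitochondrial glycerol phosphate dehydrogenase, rose 1.78-fold, while Slc25a11, a carrier of malate and oxoglutarate, fell 1.46-fold. The 3 probe sets of Gpd2 ran from log2 0.07 to 0.83, the brightest being the highest. Gpd1l and Slc25a12 fell 1.40-fold and 1.29-fold, each losing its call in 3 of 9 alternatives (limma adjusted p = 0.054 to 0.22 and 0.062 to 0.19). Got2 rose by log2 0.59 on its brightest probe set, with another at log2 -0.62, and was not called with probe sets averaged (limma adjusted p = 0.35). Mdh1 read 10825 in ND and 11093 ± 665 in HFD on its brightest probe set (limma adjusted p = 0.77), its 4 probe sets ran from log2 -1.20 to 0.13, and its sign turned under quantile normalization and with probe sets averaged.

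Of 12 tested regulators of the pathway, 1 rose and 4 fell, the latter a share near the background of 29.2%. The count that fell was 2 with the arrays centred, with no filter and without a variance trend, and Mlxip, for a glucose-sensing transcription factor, lost its call in 4 of 9 alternatives (limma adjusted p = 0.075 to 0.23). Myc, a transcription factor that drives glycolytic genes in activated T cells, rose 6.08-fold, from 777 to 4629 and 5008 (log2 2.60 ± 0.12 SE, limma adjusted p = 5.8e-09). Hif1a, the hypoxia-inducible factor subunit that acts on many of the same genes, read 16620 in ND and 14560 ± 695 in HFD on its brightest probe set (log2 -0.19 ± 0.08 SE, limma adjusted p = 0.061), and was called lower in 3 of 9 alternatives (limma adjusted p = 5.3e-04 to 0.024). The 4 probe sets of Hif1a past the filter ran from log2 -0.99 to -0.19. Epas1, its paralog, and Egln3, a prolyl hydroxylase that marks these factors for decay, fell 2.41-fold and 1.72-fold. Of 11 tested genes known to be induced by hypoxia outside glycolysis, 2 rose and 3 fell, with a median of -0.02, and 1 fell with the arrays centred or without a variance trend. Ndrg1 rose 1.61-fold (limma adjusted p = 0.0092, and 0.069 with no filter) and Higd1a 1.63-fold on its brightest probe set, the other reading log2 -0.09, and was not called with probe sets averaged (limma adjusted p = 0.1). Kdm3a fell 1.47-fold, and Ddit4 and Bhlhe40 fell 1.28-fold and 1.27-fold, both calls ending with the arrays centred (limma adjusted p = 0.18 and 0.22) and without a variance trend (limma adjusted p = 0.09 and 0.096).

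**Figure D3:**
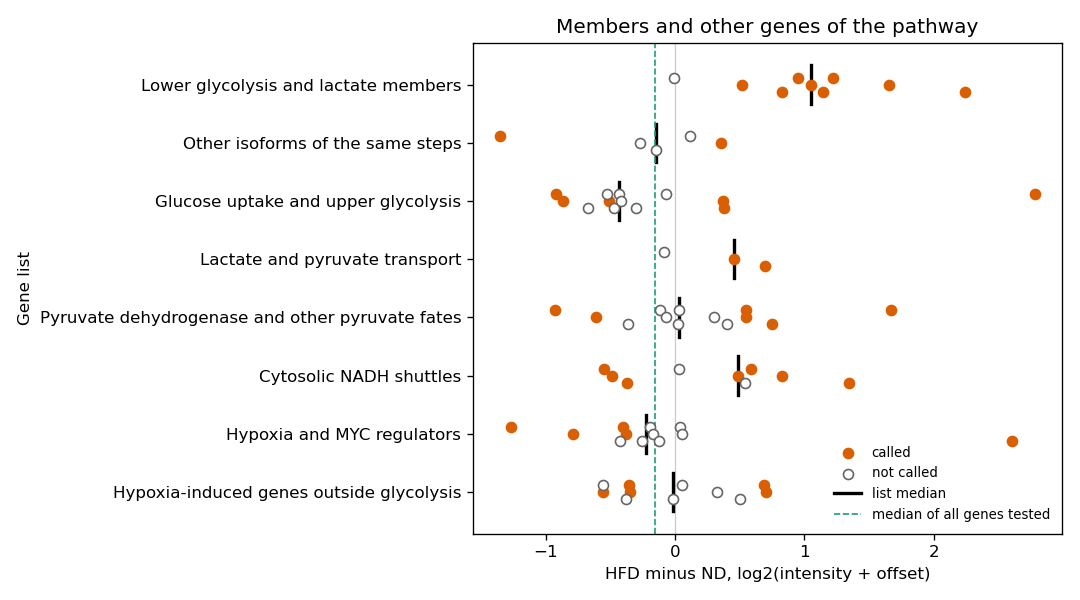
HFD minus ND on the log2(intensity + 17.65) scale for each tested gene of 8 lists (1 point per gene, filled where called at a limma adjusted p under 0.05), with the list median as a bar and the median of all genes tested, -0.15, as a dashed line. The lower glycolysis and lactate genes have their median at 1.05, and glucose uptake and upper glycolysis at -0.43 with Hk2 alone far to the right.

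Of 10 other reference transcripts tested, 3 rose and 0 fell (1 was lower at an unadjusted limma p under 0.05). The background was 20.5% of all genes called higher and 29.2% lower, so these counts are not read as a result about reference genes. The scaling moved these counts: 2 fell under quantile normalization and 5 rose with the arrays centred, with medians of -0.05 and 0.27 against 0.12 on the log2 scale. Actb, for beta-actin, read 34803 in ND and 35886 ± 396 in HFD (log2 0.04 ± 0.06 SE, limma adjusted p = 0.58), with the sign turned under quantile normalization, while Hprt rose 1.46-fold (5847 to 8540 ± 1.21) and Tfrc, the transferrin receptor, rose 4.41-fold (2121 to 9431 ± 797). Gusb rose 1.54-fold on its brightest probe set, with another at log2 -0.16, and was not called with probe sets averaged (limma adjusted p = 0.18). Because ND is a single array, its diet and whatever else set that array apart cannot be told apart.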

How the data were processed

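RNA was measured on 3 one-colour arrays, 1 ND and 2 HFD. The values deposited by the authors are linear intensities per probe set; they were made with GCOS, per the submitters' processing notes, whose version, algorithm and background correction were not given in the sources used here. The mean after trimming 2% at each end is 500.0 on every array, and medians are 78.5, 70.0 and 67.6, so many bright transcripts moving one way push the remaining values the other way. No detection call was used, so dim values cannot be told from background, and precision is limited by having 3 arrays.

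Of 45037 probe sets besides 64 controls, 34945 had 1 symbol in the platform annotation, 932 several and 9160 none; 34741 matched a gene of the RefSeq table (assembly GRCm38.p6) by Entrez identifier and 0 symbols changed. Values were transformed as log2(intensity + 17.65), the 25th percentile. Genes with a mean over the arrays above 71.4, the median, were tested, each by its brightest probe set (10341 genes), by limma 3.58.1 (lmFit, eBayes with a trend) (R 4.3.3), a two-sided test with 1 residual and 11.69 prior degrees of freedom. A second fit took all 22518 probe sets past the filter. The model was checked on simulated data with 200 of 10341 genes changed and the same spread on all arrays. It called 77% of the 2-fold changes and 0 unchanged genes. Because ND was given the spread of HFD there, and far fewer genes changed than were called here, the check cannot show that ND varies like HFD. Quantile normalization or centring, other offsets and filters, averaged probe sets, other variance models and each HFD array left out were the alternatives; Gapdh controls in the fit were added after seeing the data. Promoter sequences are from RefSeq.

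The members and lists were chosen with earlier results of these data known. Besides the members, the genes named were up to 3 called in each direction per list, ranked by the lesser of their HFD 1 and HFD 2 differences, a fixed set, and the 3 genes closest to the member with the largest change. Not all of them are printed. Python 3.11.15 was used with numpy 2.4.6, pandas 2.3.3 and matplotlib 3.10.9.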

Additional observations from a re-analysis of the deposited data

How the results depend on the processing

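The 8 genes called higher kept their call under each of the 9 alternatives with a test, and their sign in each HFD array taken alone. Aldoa came closest to the threshold (limma adjusted p = 0.044 without a variance trend). The median difference of the 9 genes was 0.98 under quantile normalization, 1.21 with the arrays centred and 1.14 with probe sets averaged, against 1.05, and 1.02 or 1.09 with a single HFD array. Without the filter 1922 genes over the whole table were called lower, against 3015. Of the probe sets of these genes, 15 were called higher, a count of 13 without a variance trend and 16 with the arrays centred. In the main fit 1 was called lower, and 2 were with the filter at the 75th percentile, all of Ldhb. With no filter 0 were called lower (2 at an unadjusted limma p under 0.05). The count was also 0 without a variance trend (1 at an unadjusted limma p under 0.05). Over its 4 probe sets averaged, Ldhb lay at log2 -0.41. The difference of change between Ldha and Ldhb was 0.58 under quantile normalization and 1.24 with probe sets averaged, against 0.84. Counts and medians of the other lists stayed near their main value in 413 of 507 cases, counts of 0 that stayed 0 among them. A median was taken as near where it moved by less than the SD between the HFD arrays. No paired analysis was possible because the ND group has 1 array and the labels give it no replicate number. With 1 ND array, its own spread is not measured, and dim probe sets lie near background.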
